A study of Mus musculus with 48 samples.

Results

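The 10 genes described here encode enzymes that make, elongate, desaturate and store fatty acids, together with proteins that regulate that synthesis: Scd1, Scd2, Fasn, Elovl6, Thrsp, Acly, Acaca, Agpat2, Srebf1 and Me1. They were taken as a named list that was chosen with earlier results of these data known. The list was matched by symbol to the Ensembl gene identifiers of the count table, and all 10 were found among its 14125 genes. All 10 also passed the low-count filter, which kept 12592 genes. RNA was measured in 48 libraries of mixed gastrocnemius, a calf muscle, from male C57BL6J mice, by QuantSeq, a method that counts polyadenylated RNA from its 3′ end. The vehicle group (labelled EtOH_CON, n = 10) drank water with 1% ethanol and ate control chow, and a second group (EtOH_ATGLi, n = 10) drank the same water and ate chow with 571 mg/kg atglistatin. The corticosterone group (Cort_CON, n = 14) drank water with 100 ug/ml corticosterone and ate control chow, and the last group (Cort_ATGLi, n = 14) received corticosterone and atglistatin chow together. All treatments lasted 2 weeks, and the mice carried no engineered allele that the labels name. Atglistatin inhibits adipose triglyceride lipase, the enzyme encoded by Pnpla2 that starts the breakdown of stored triglyceride. It reached the whole animal through the food, so the groups do not isolate the lipase of muscle. The labels state neither the ages of the mice nor whether corticosterone water held ethanol. Of the corticosterone group, 9 mice were labelled diabetic and 5 nondiabetic, and all other mice were labelled nondiabetic. Each library carried its own fed glucose and insulin label, without a unit, so each was taken as 1 mouse, which the labels do not state.

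Fatty acid synthesis starts from citrate exported by mitochondria, which ATP citrate lyase (Acly) splits to give cytosolic acetyl-CoA. Acetyl-CoA carboxylase (Acaca) turns it to malonyl-CoA, fatty acid synthase (Fasn) builds palmitate with NADPH that malic enzyme (Me1) can supply, Elovl6 lengthens it, and the stearoyl-CoA desaturases Scd1 and Scd2 add a double bond. Agpat2 then uses fatty acids to build phosphatidic acid, a precursor of triglyceride. Srebf1 encodes the sterol-responsive transcription factor through which insulin is known to act on this pathway in liver and fat, and Thrsp (Spot 14) encodes a small protein tied to lipogenic rate. Muscle is known to make little fatty acid itself, and most of these genes are highly expressed in fat cells, which lie between muscle fibres.

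On the GRCm38 build, GENCODE places Scd1 at chr19:44394455-44407879 on the minus strand and its paralog Scd2 beside it at chr19:44293674-44306864 on the plus strand. Fasn (chr11:120805846-120824547), Acly (chr11:100476353-100528000), Srebf1 (chr11:60199089-60222581) and Acaca (chr11:84129672-84401651) share chromosome 11. Elovl6 lies at chr3:129532355-129638495, Thrsp at chr7:97412938-97417730, Agpat2 at chr2:26593057-26604417 and Me1 at chr9:86581371-86695953. All are protein-coding. Over the last 500 bases of their transcripts, where QuantSeq reads fall, 22.4% of the 50-base words of Acaca also occurred in Gm5182 and 8.73% of those of Elovl6 in Gm11295, so the counts of these members are less certain. The other 8 members shared none. These shares pool the ends of all protein-coding transcripts of a gene, so the share at the end that was read can be higher or lower. Agpat2 overlaps Egfl7 on the opposite strand, Srebf1 overlaps Rai1 and Me1 overlaps A330041J22Rik, and no source used here gives the strand setting of the counting.

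RefSeq promoter windows of GRCm38.p6, from 250 bases before to 50 after a start site, held 11 entries for 8 of the 10 members. Scd1 and Scd2 had none. Some windows lie inside their gene, among them the only one of Acaca (chr11:84195188-84195487), so not every window is that of a first start site. Of the 250 bases before the start site, 129 in Elovl6 and 180 in Thrsp lie in an annotated exon. The windows were searched on both strands for the core of the classical sterol regulatory element (TCACCCCAC), the E-box CACGTG, the NF-Y box CCAAT and the Sp1 box GGGCGG, because NF-Y and Sp1 are known partners of the sterol-responsive factor. None of the 11 windows held the sterol core or the E-box, which occur in 0.551% and 7.15% of all 32851 windows of this length. The NF-Y box, in 37.4% of all windows, was in 6 of the 11, and the Sp1 box, in 35.7% of all windows, was in 5. Fasn held 3 NF-Y boxes, of which the pair nearest the start site overlap, and Thrsp held 2. These letters are a description of the windows, not of binding. The 250 bases before the start sites of 3 members that fell with atglistatin are printed 5′ to 3′ on the gene's strand, with NF-Y and Sp1 boxes of either strand in capitals, to show how their makeup differs: Fasn (chr11:120824548-120824797) has NF-Y boxes alone, while Acly (chr11:100528001-100528250) and Agpat2 (chr2:26604418-26604667) have Sp1 boxes alone in these bases.
Fasn: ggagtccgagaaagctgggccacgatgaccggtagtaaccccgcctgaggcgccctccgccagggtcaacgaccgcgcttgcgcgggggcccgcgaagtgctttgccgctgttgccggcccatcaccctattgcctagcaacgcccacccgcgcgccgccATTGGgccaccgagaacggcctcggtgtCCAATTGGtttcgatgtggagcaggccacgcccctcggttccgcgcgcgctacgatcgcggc
Acly: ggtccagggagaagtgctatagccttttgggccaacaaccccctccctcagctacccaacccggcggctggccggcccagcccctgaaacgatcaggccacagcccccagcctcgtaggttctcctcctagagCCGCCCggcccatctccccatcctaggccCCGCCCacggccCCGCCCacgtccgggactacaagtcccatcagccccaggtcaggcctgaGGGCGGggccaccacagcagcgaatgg
Agpat2: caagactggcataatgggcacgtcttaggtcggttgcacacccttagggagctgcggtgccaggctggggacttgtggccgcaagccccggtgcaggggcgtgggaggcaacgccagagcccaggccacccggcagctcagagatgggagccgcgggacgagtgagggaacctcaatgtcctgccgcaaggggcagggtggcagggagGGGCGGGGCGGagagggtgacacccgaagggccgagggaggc

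Total counts per library ran from 10453888 to 24034481, so that a level of 1 CPM (the usual scaled count) stood for 10 to 24 counts. Counts were all even in 47 libraries, for a reason not recorded, so the number of separate reads may be smaller. Markers of muscle fibres (9 genes, Acta1 and Ckm among them) summed to between 63844 and 109487 CPM in every library. Fkbp5, a glucocorticoid target used here as a check of the corticosterone labels, rose by 3.53 on the log2 scale with corticosterone on control chow (adjusted p = 3.92e-23). On atglistatin chow it rose by 2.47, and the difference between the diets was -1.07 (edgeR's quasi-likelihood test, adjusted p = 0.0121). On vehicle water it was also higher with atglistatin, by 0.78 (same test, adjusted p = 0.0219). Levels are given as CPM of the library size after normalization by the trimmed mean of M-values, and differences as log2 fold changes of a fit over all 12592 genes (edgeR's quasi-likelihood test, Benjamini-Hochberg adjustment over all genes, called at an adjusted p under 0.05). Levels are not compared between genes. In whole muscle, fewer cells of a type and less RNA per cell cannot be told apart.

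**Figure D1:**
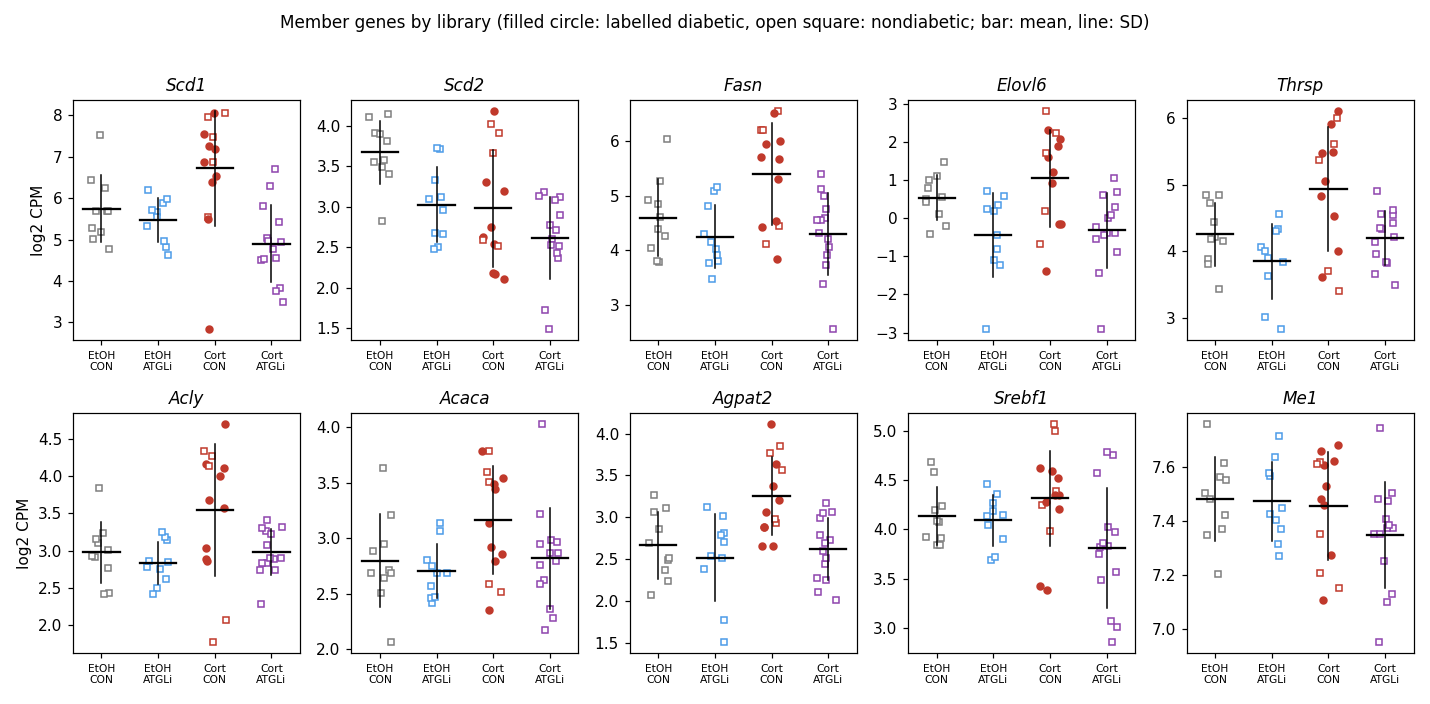
Level of each member in all 48 libraries, as log2 CPM (y axis) by treatment group (x axis), with 1 point a library, the group mean as a bar and 1 SD as a line. Filled circles are mice labelled diabetic and open squares nondiabetic ones. For Scd1, Fasn, Elovl6, Thrsp and Acly every corticosterone plus atglistatin library lies below the median of the corticosterone group, and the ranges overlap.

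With corticosterone on control chow, 5 of the 10 members rose and 1 fell against vehicle: Scd1, Fasn, Thrsp, Acly and Agpat2 rose and Scd2 fell. Corticosterone changed much of the transcriptome, and 38.4% of all genes tested were called, 18.9% higher and 19.5% lower, against which the members' 6 of 10 must be read. The median log2 fold change was 0.68 over the members and -0.00 over all genes. The 4 members that were not called were Elovl6, Acaca, Srebf1 and Me1.

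Scd1, the desaturase that makes oleate from stearate, ranged over 26.99, 51.4 and 182.9 CPM (lowest, median and highest) in vehicle mice and over 7.04, 131.2 and 267.6 CPM with corticosterone. The groups overlapped, and 11 of the 14 corticosterone libraries lay above the vehicle median while 1 lay below every vehicle library. Its mean went from 63.4 ± 46.04 CPM in the 10 vehicle mice to 139.5 ± 83.1 CPM in the 14 corticosterone mice (± SD). The fitted log2 difference was 1.14, with SE 0.39 and an adjusted p of 0.0173. Fasn ranged over 13.7, 22.5 and 65.9 CPM in vehicle mice and 14.2, 51.3 and 93.7 CPM with corticosterone, with 10 of 14 libraries above the vehicle median. The fitted change of Fasn was 0.88 (SE 0.31, adjusted p = 0.0221). Thrsp ranged over 10.7, 18.2 and 28.6 CPM in vehicle mice and 10.4, 37.01 and 68.8 CPM with corticosterone. For Thrsp, 8 of 14 corticosterone libraries exceeded every vehicle library, and the change was 0.87 (SE 0.26, adjusted p = 0.0058).

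Acly, which supplies the acetyl-CoA, ranged over 5.19, 7.69 and 14.2 CPM in vehicle mice and 3.29, 14.3 and 25.8 CPM with corticosterone. Of the libraries, 7 of 14 corticosterone libraries exceeded all vehicle libraries and 2 lay below all of them, around a change of 0.74 (SE 0.22, adjusted p = 0.00556). Agpat2, the acyltransferase that yields phosphatidic acid, was above the vehicle median in all 14 corticosterone libraries. It ranged over 4.05, 5.94 and 9.46 CPM in vehicle mice and 6.14, 8.67 and 17.2 CPM with corticosterone, a change of 0.63 (SE 0.17, adjusted p = 0.00305). Egfl7, which overlaps Agpat2 on the opposite strand, had a value of 0.22 (SE 0.11, adjusted p = 0.0946). Its part in the counts of Agpat2 was not tested. Scd2, the paralog of Scd1 with the same enzymatic activity, moved the other way, from 6.93, 12.8 and 17.5 CPM to 4.18, 6.30 and 17.99 CPM. Its log2 fold change was -0.56 (SE 0.22, adjusted p = 0.0355), with 8 of 14 corticosterone libraries below every vehicle library and 1 above every one. The call of Scd2 was lost without any 1 of 12 libraries (EtOH_CON p01, p03, p10, p11 and p15, and Cort_CON p27, p30, p32, p33, p34, p35 and p45), where its adjusted p reached 0.0673.

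Elovl6, the elongase of palmitate, had low counts, with medians of 1.32 CPM in vehicle and 2.56 CPM in corticosterone mice, and its difference of 0.88 (SE 0.39, adjusted p = 0.0708) was not called. Acaca had a difference of 0.39 (SE 0.17, adjusted p = 0.071). With only these groups in the fit the calls of Fasn and Scd2 were lost, and against the 5 nondiabetic corticosterone mice alone those of Acly and Scd2 were lost. Without Cort_CON p32, p33 and p34, the mice with the least insulin, Scd2 was not called and Acaca and Elovl6 rose. Both also passed without EtOH_CON p10, Acaca also without Cort_CON p33 or p35 and Elovl6 also without Cort_CON p32 or p45. Srebf1 (0.22, SE 0.18, adjusted p = 0.356) and Me1 (-0.02, SE 0.08, adjusted p = 0.847) had intervals that included 0, and Me1 stayed between 137.8 and 216.3 CPM in every vehicle and corticosterone library.

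**Figure D2:**
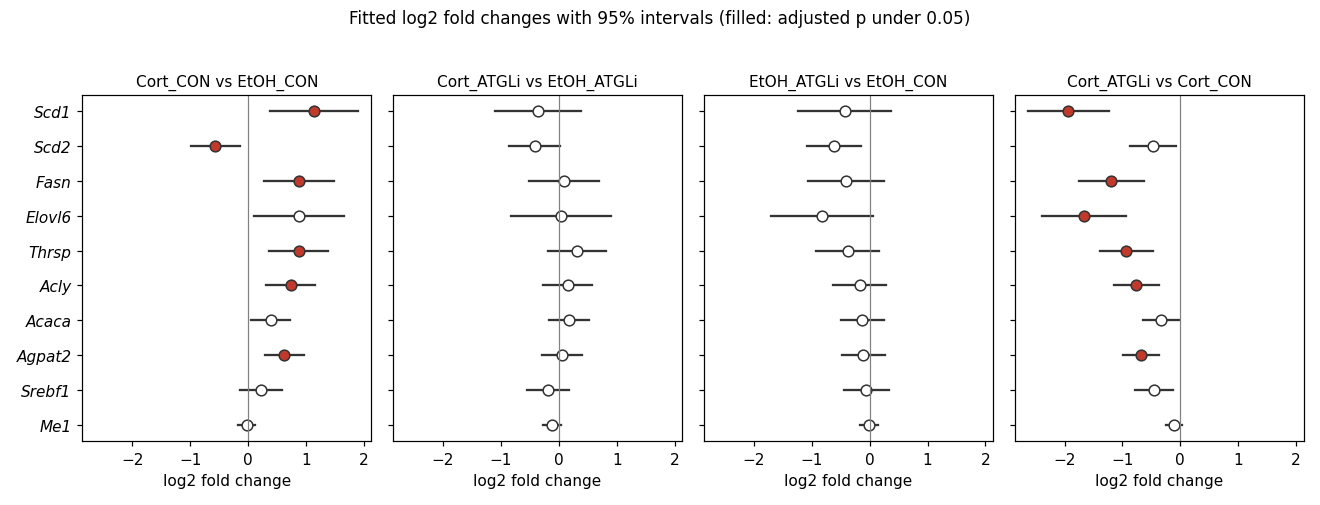
Fitted log2 fold change of each member (x axis) in the 4 comparisons of groups, with 95% intervals as lines and calls at an adjusted p under 0.05 as filled points. In Cort_ATGLi against Cort_CON all 10 points lie below 0 and 6 are filled, from -1.94 for Scd1 to -0.68 for Agpat2. The middle panels hold no filled point.

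In corticosterone-treated mice, atglistatin was accompanied by lower levels of 6 members: Scd1, Elovl6, Fasn, Thrsp, Acly and Agpat2. Few genes differed in this comparison, 1.60% of all genes tested (0.667% higher and 0.929% lower), against 6 of 10 members lower and none higher. Because the members were chosen with earlier results of these data known, this contrast is a description and not a test of the list. The remaining 4 also had negative values, and the median log2 fold change was -0.72 over the members and 0.00 over all genes. This comparison shares the 14 corticosterone libraries with the preceding one, so a high level in those libraries enters both with opposite sign.

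Scd1 had the largest difference of the members. It ranged over 11.2, 28.8 and 104.2 CPM with atglistatin and over 7.04, 131.2 and 267.6 CPM without, and all 14 atglistatin libraries were below the median of the others although the ranges overlapped. Mean Scd1 went from 139.5 ± 83.1 to 36.4 ± 26.5 CPM (SD, n = 14 each). The fitted log2 difference was -1.94, with SE 0.36 and an adjusted p of 0.00128, which is 3.83-fold lower. Elovl6 ranged over 0, 0.680 and 1.95 CPM with atglistatin and over 0.252, 2.56 and 6.91 CPM without, and all 14 atglistatin libraries were below the other group's median. Its change was -1.67 (SE 0.37, adjusted p = 0.0104). The library at 0 was p13, where 3 counts of its total, the most that 0 counts allow, would be 0.200 CPM, a limit that covers counting error only. All counts of this library were even, for a reason not recorded. If each read was counted more than 1 time, the limit would be higher.

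Fasn ranged over 5.79, 21.6 and 42.3 CPM with atglistatin, entirely below the corticosterone median of 51.3 CPM, and changed by -1.19 (SE 0.28, adjusted p = 0.0172). Thrsp ranged over 11.05, 19.2 and 29.7 CPM, again with all 14 libraries below the corticosterone median of 37.01 CPM, and changed by -0.93 (SE 0.23, adjusted p = 0.0246). The ranges of both genes overlapped: the lowest Fasn level with corticosterone alone, 14.2 CPM, lay within the atglistatin range, and the lowest Thrsp level, 10.4 CPM, just below it. Acly narrowed to 4.73, 7.35 and 10.5 CPM, where corticosterone alone had spread from 3.29 to 25.8 CPM, and changed by -0.76 (SE 0.20, adjusted p = 0.0297). Without Cort_ATGLi p23 or p38, or Cort_CON p29, p36, p49 or p50, the call of Acly was lost, with adjusted p up to 0.0681. Agpat2 ranged over 3.91, 6.13 and 8.84 CPM, with 7 of 14 libraries below every corticosterone library, and changed by -0.68 (SE 0.16, adjusted p = 0.0129). Egfl7, the endothelial gene that overlaps Agpat2, had a log2 fold change of -0.06 (SE 0.10).

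Of the members that were not called, Srebf1 had the value nearest to a call (-0.46, SE 0.17, adjusted p = 0.177), with 11 of 14 atglistatin libraries below the corticosterone median. Scd2 differed by -0.47 (SE 0.21, adjusted p = 0.318) with near equal medians of 6.19 and 6.30 CPM, and Acaca by -0.34 (SE 0.16, adjusted p = 0.363). Me1 differed by -0.11 (SE 0.07, adjusted p = 0.576). Against the 5 corticosterone mice labelled nondiabetic alone, 4 of the 6 calls remained (Scd1, Elovl6, Fasn and Agpat2), with Scd1 at -2.23 (SE 0.40, adjusted p = 0.00113). The share of all genes called in that fit is not reported here, so this count has no background.

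How many members were called depended on the model. With limma voom the calls were Scd1, Fasn and Agpat2, and with only the 28 corticosterone libraries in the fit they were Scd1 and Agpat2. Fewer genes of any kind were called in the fit of 28 libraries, and the share of all genes with limma voom is not reported here. Fed glucose and insulin also moved with the diet. Insulin labels ran from 9.31 to 39.8 with corticosterone alone and from 2.19 to 36.0, with a median of 13.8, when atglistatin was added. Fed glucose ran from 131 to 407 and from 95 to 138. The labels do not say whether the 9 insulin values between 36.7 and 39.8 stand at a ceiling of the assay. If they do, higher insulin in those mice is not resolved, which limits both this covariate and the slopes on insulin given further on. With log2 insulin as a covariate in the 28 libraries no member was called, although Scd1 kept a difference of -1.60 (SE 0.46, adjusted p = 0.0974) and Agpat2 one of -0.63 (SE 0.18, adjusted p = 0.0852). With log2 fed glucose as the covariate no member was called either, with Scd1 at -2.40 (SE 0.60, adjusted p = 0.0787). All 10 members kept negative values in both fits.

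In mice on vehicle water, atglistatin was not accompanied by a called change of any member. Only 3 genes, 0.0238% of those tested, were called in this comparison, and 839 genes had an unadjusted p under 0.05, 1 member among them. That member was Scd2, which ranged over 5.44, 8.01 and 13.1 CPM with atglistatin and 6.93, 12.8 and 17.5 CPM without, a difference of -0.62 (SE 0.24, adjusted p = 0.571). All 10 members had negative values here, from -0.82 (SE 0.45) for Elovl6 to -0.01 (SE 0.08) for Me1, with a median of -0.27. Elovl6 was at 0 in EtOH_ATGLi p05, where the limit of 3 counts is 0.287 CPM. The counts of this library were also all even, so that limit may be too low. DESeq2 called 38 genes and limma voom 28, with no member among them.

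Between the groups fed atglistatin, corticosterone was not accompanied by a called change of any member, while 30% of all genes tested were called. No member had an unadjusted p under 0.05. Scd1 ranged over 24.7, 48.4 and 73.7 CPM in vehicle mice on atglistatin and over 11.2, 28.8 and 104.2 CPM with corticosterone added, a difference of -0.37 (SE 0.38, adjusted p = 0.511). Its 95% interval reached from -1.11 to 0.38, and on control chow from 0.38 to 1.90. Thrsp had the highest value, 0.31 (SE 0.26), and Scd2 the lowest, -0.42 (SE 0.22). Fasn (0.09, SE 0.31), Acly (0.15, SE 0.22), Agpat2 (0.06, SE 0.18) and Elovl6 (0.04, SE 0.44) were near 0.

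Whether the response to corticosterone differed between the diets was tested with the interaction term, which compares the log2 fold change on atglistatin with that on control chow. No member passed, among 5 genes called (0.0397% of those tested). Scd1 had the largest value of the members, -1.50 (SE 0.54, p = 0.00774 before and 0.698 after adjustment), followed by Elovl6 with -0.84 (SE 0.59) and Fasn with -0.79 (SE 0.44). Agpat2 had -0.57 (SE 0.25, p = 0.0245 before and 0.872 after adjustment). Of the 10 values 9 were negative, and Scd2 alone was positive (0.15, SE 0.31). A difference between the diets in how the members respond to corticosterone is therefore not shown by this test.

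Within the corticosterone group the diabetic label did not separate the members. No gene was called between the 9 diabetic and the 5 nondiabetic mice (0% of those tested), and of the 625 genes with an unadjusted p under 0.05 none was a member. DESeq2 and limma voom also called none. Mean Scd1 was 121.7 ± 77.4 CPM (SD, n = 9) in diabetic and 171.5 ± 91.8 CPM (SD, n = 5) in nondiabetic mice, a log2 difference of -0.49 (SE 0.50, adjusted p = 0.999). Its interval reached from -1.47 to 0.48. Mean Thrsp was 36.7 ± 19.4 and 35.4 ± 23.2 CPM.

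**Figure D3:**
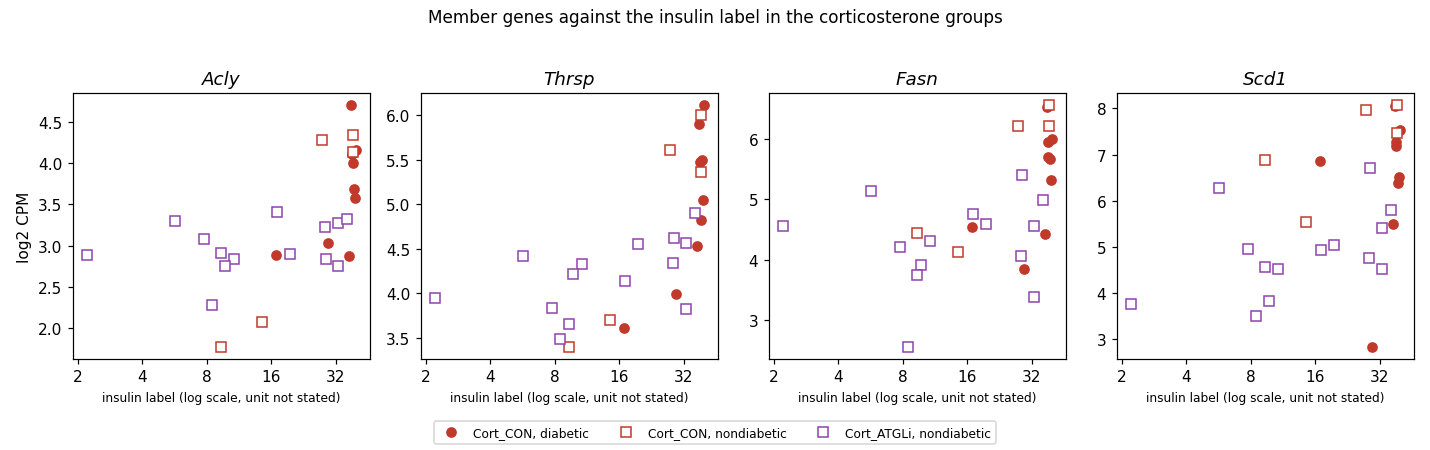
Levels of Acly, Thrsp, Fasn and Scd1 (log2 CPM, y axis) against the insulin label (x axis, log scale, unit not stated) in the 28 corticosterone-treated mice, with 1 point a library, filled for the diabetic label. In the corticosterone group 9 points crowd between 36.7 and 39.8, and the 3 points at the lowest insulin are among the lowest for Thrsp and Acly.

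Insulin labels of the corticosterone group fell into 9 mice between 36.7 and 39.8 and 5 between 9.31 and 29.3, and fed glucose into 10 mice between 242 and 407 and 4 between 131 and 145, so no correlation over all 14 is given. The mouse at 242, p36, was labelled nondiabetic, so the fits with nondiabetic mice alone include it. As a slope per doubling of insulin within this group, Acly rose by 1.13 (SE 0.23, adjusted p = 0.0182) and Thrsp by 1.17 (SE 0.25, adjusted p = 0.0389), that is 2 of 10 members against 1.53% of all genes tested. All 10 slopes were positive, with a median of 0.48 against 0.01 over all genes. Fasn (0.90, SE 0.32, adjusted p = 0.243), Elovl6 (1.18, SE 0.46, adjusted p = 0.283) and Acaca (0.46, SE 0.15, adjusted p = 0.144) were not called. Scd1 had a slope of 0.39 (SE 0.47), and its level at insulin labels below 30 ran from 7.04 to 248.8 CPM.

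The mice with the least insulin were p33, p32 and p34, whose Acly was 3.29, 4.07 and 7.28 CPM and whose Thrsp was 10.4, 12.9 and 12.1 CPM. These are the 3 lowest Thrsp values of the group. Without these 3 libraries no gene was called, and the slope of Acly was 0.46 (SE 0.90). That of Thrsp, 1.03, was close to the value with all 14 mice but had an SE of 1.06. Leaving out p32, p33 or p34 alone also ended the call of Acly, and the call of Thrsp ended without any 1 of 9 libraries (p27, p29, p30, p32, p33, p34, p36, p46 or p50). With fed glucose in the same model 5 members were called (Elovl6 1.86, Thrsp 1.53, Acly 1.39, Fasn 1.32 and Acaca 0.69 per doubling of insulin). The share of all genes called in that fit is not reported here, so this count has no background to stand beside. Among adipocyte markers, Retn (1.45, SE 0.20, adjusted p = 0.00121) and Plin1 (1.00, SE 0.24, adjusted p = 0.0396) rose with insulin too, 2 of 10, as did 2 of 5 erythroid markers, and their part in the members' slopes was not tested.

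In mice given corticosterone and atglistatin no member had a called slope. For insulin 13 genes were called, 0.103% of those tested, and for fed glucose none in either corticosterone group (0% and 0%). Thrsp had a slope of 0.18 per doubling of insulin (SE 0.07, adjusted p = 0.397) and Acaca one of -0.18 (SE 0.08, adjusted p = 0.449). For fed glucose, 850 genes had an unadjusted p under 0.05 in this group and 807 with corticosterone alone, none of them a member, and DESeq2 called 1 gene in each. Correlations of log2 CPM with the log2 labels were computed for 30 relations, 20 over these 14 mice and 10 over the 10 corticosterone mice with fed glucose above 200, and none passed adjustment in a permutation test. Thrsp and insulin had r = 0.50 (p = 0.069, adjusted 0.36) and rho = 0.57 (p = 0.037, adjusted 0.56) over 14 mice, and r = 0.41 without the 2 mice farthest from the median insulin. Acaca and fed glucose had r = -0.75 (p = 0.01, adjusted 0.3, permutation test, n = 10) and rho = -0.53 (p = 0.12) in the corticosterone mice with fed glucose above 200. Without the 2 farthest mice r was -0.22, so that relation rested on them. Insulin and fed glucose themselves had r = 0.65 (p = 0.011) and rho = 0.65 (p = 0.014) over the 14 mice.

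**Figure D4:**
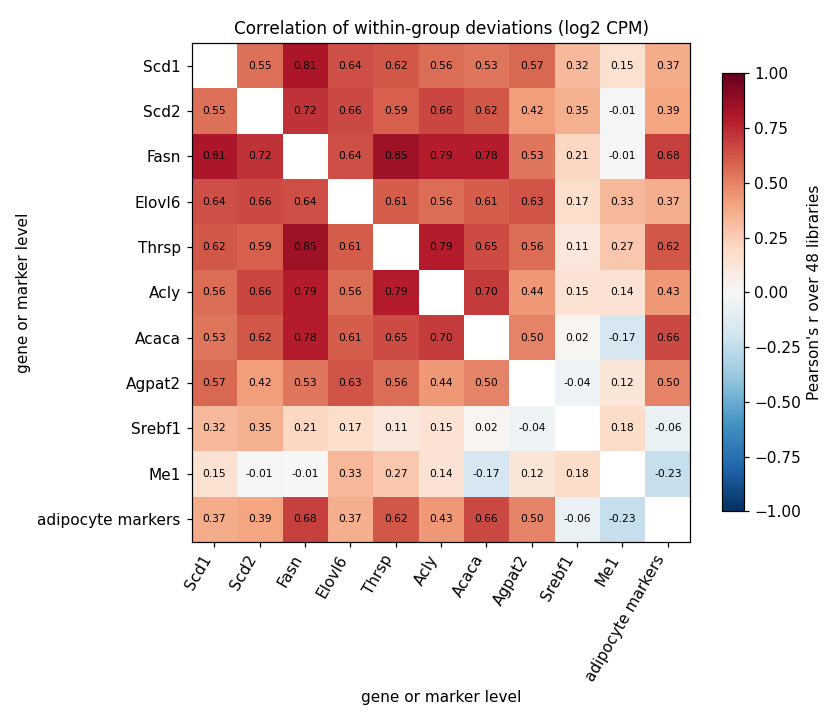
Pearson's r between members over 48 libraries, after subtracting each group's mean log2 CPM (rows and columns: genes, and the mean log2 CPM of adipocyte markers; colour: r). Srebf1 and Me1 stand apart in pale colours, and Fasn with Thrsp has the highest value, 0.85.

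Mice of the same group differed in the members together. After each group's mean was removed, the 28 pairs among the 8 members other than Srebf1 and Me1 had Pearson's r from 0.42 to 0.85 over 48 libraries. Fasn and Thrsp had r = 0.85, Scd1 and Fasn 0.81, and Acly had 0.79 with each of Fasn and Thrsp. The 17 pairs with Srebf1 or Me1 ran from -0.17 to 0.35. Scd2, which differed from Scd1 in its change with corticosterone, had r = 0.55 with it. The values share libraries and their normalization and are a description only. Outside the members, genes close to Scd1, of the 7614 whose mean reached 5 CPM, included Trf (r = 0.65), Pgm1 (0.61), Tpbgl (0.61), Sema6c (0.60) and Pkm (0.59), and without Cort_CON p45 these were 0.67, 0.43, 0.52, 0.51 and 0.35.

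Adipocyte markers moved with the same members within groups. The mean log2 CPM of 10 of the 11 markers listed (Ucp1 had no row in the table) correlated with 8 of 10 members over 48 libraries, in a permutation test within groups that was adjusted over 10 relations. Fasn had r = 0.68 (rho = 0.74, both p = 1e-05, the smallest the resampling can give, adjusted 3.3e-05 and 5e-05), and 0.68 without the 2 farthest libraries. Thrsp had r = 0.62 (rho = 0.71) and Acaca r = 0.66 (rho = 0.56). Scd1 had r = 0.37 (p = 0.0048, adjusted 0.0069) and rho = 0.48 (p = 6e-04, adjusted 0.0011). Srebf1 had r = -0.06 (p = 0.68) and Me1 r = -0.23 (p = 0.12). From Cort_CON to Cort_ATGLi none of the 10 markers was called, their median log2 fold change was 0.09, and their summed level ran from 252 to 524 CPM and from 226 to 892 CPM. Single markers differed in both directions, with the largest values for Adrb3 (1.498, SE 0.65, adjusted p = 0.317), Cfd (1.07, SE 0.31, adjusted p = 0.0686) and Lep (-0.49, SE 0.24, adjusted p = 0.404). Adipoq differed by 0.12 (SE 0.25), Plin1 by 0.07 (SE 0.30) and Fabp4 by -0.01 (SE 0.12). From EtOH_CON to EtOH_ATGLi none was called either, but 8 of the 10 markers had negative values, with a median of -0.32, beside the 10 negative values of the members, and their part in those was not tested.

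From vehicle to corticosterone, 2 adipocyte markers rose, among them the hormone gene Lep by 2.03 (SE 0.30), and 3 fell, among them the adipokine gene Cfd by 2.12 (SE 0.34) and Fabp4 by 0.38 (SE 0.14). Their summed level ran from 307 to 822 CPM in vehicle mice. Muscle fibre markers rose in 4 of 9 cases and fell in 1. Markers of fibro-adipogenic progenitors, the connective tissue cells of muscle, fell in 7 of 8 cases with a median log2 fold change of -0.81 and summed levels of 814 to 1248 CPM in vehicle and 526 to 976 CPM in corticosterone mice. Of the others, 4 of 6 endothelial, 4 of 6 macrophage and 3 of 8 Schwann cell markers fell, and 4 of 5 erythroid markers rose. These marker counts stand beside the 38.4% of all genes called from vehicle to corticosterone, 18.9% higher and 19.5% lower. The part of the marker changes in the members' changes was not tested. In Cort_ATGLi against Cort_CON no marker on the lists for muscle fibres, progenitors, endothelium, macrophages, Schwann cells or erythroid cells was called.

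**Figure D5:**
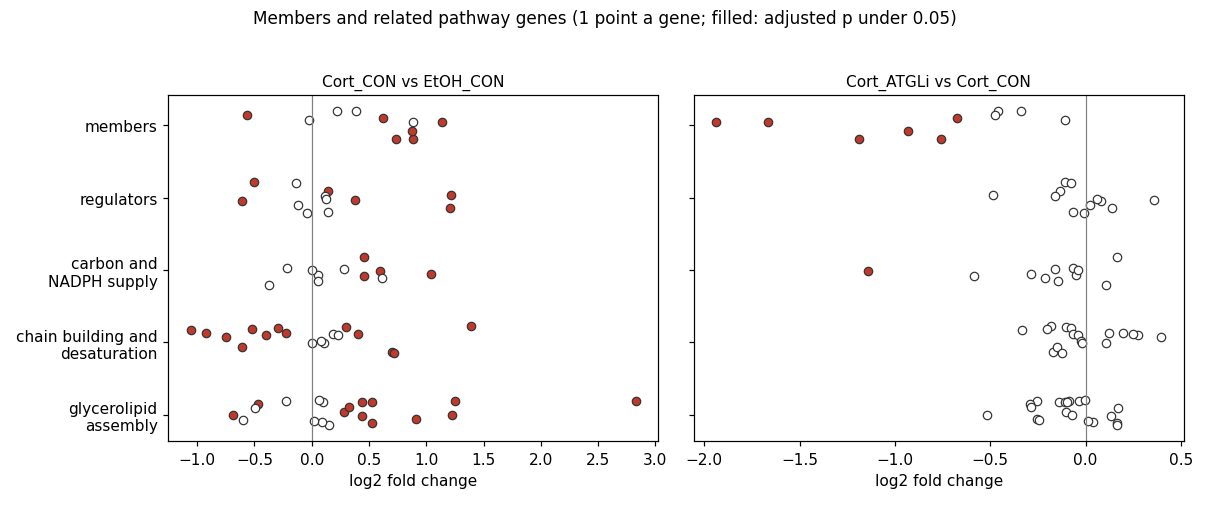
Log2 fold change (x axis) of the 10 members and of 4 lists of related genes (rows), with 1 point a gene and calls at an adjusted p under 0.05 filled, for Cort_CON against EtOH_CON on the left and Cort_ATGLi against Cort_CON on the right, each on its own scale. On the left filled points lie on both sides of 0 in 3 of the lists, and on the right 1 gene beyond the members is filled, Slc25a1 at -1.14.

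Other genes of the pathway were taken from 4 lists. From vehicle to corticosterone, 4 of 12 regulators rose and 2 fell. Nr1h3, which encodes a liver X receptor, rose by 1.21 (SE 0.10) and Mid1ip1, the paralog and partner of Thrsp, by 1.21 (SE 0.21), while Srebf2, the sterol-synthesis counterpart of Srebf1, fell by 0.61 (SE 0.16). Of 11 genes that supply carbon or NADPH 4 rose, among them the NADPH-producing dehydrogenase genes Idh1 (0.60, SE 0.11) and Pgd (0.46, SE 0.12). Of 18 genes of chain building and desaturation 5 rose and 8 fell. Tecr, the last enzyme of the elongation cycle, rose by 1.39 (SE 0.11), while Hacd1, which acts just before it, fell by 0.74 (SE 0.09). In the same list Mlycd had 0.70 (SE 0.11) and Fads6 -1.06 (SE 0.17). Of 20 glycerolipid genes 10 rose and 2 fell, with Pnpla3 at 2.83 (SE 0.24), Acsl3 at 1.23 (SE 0.14) and Dgat2, the final enzyme of triglyceride synthesis, at 0.91 (SE 0.15). Acsl4 was among those that fell, at -0.47 (SE 0.08). The shares of these lists stand beside the 38.4% of all genes called.

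On atglistatin chow, corticosterone raised 4 and lowered 2 of the 12 regulators, raised 3 of the 11 supply genes, raised 4 and lowered 7 of the 18 chain genes, and raised 8 and lowered 1 of the 20 glycerolipid genes, beside 30% of all genes called. Nr1h3 (0.90, SE 0.10), Mid1ip1 (0.88, SE 0.21), Tecr (1.30, SE 0.11) and Pnpla3 (2.87, SE 0.25) were again higher, whereas none of the 10 members was called. The difference between the diets was not past the threshold for any gene of these lists.

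Adding atglistatin to corticosterone changed 1 of the 11 supply genes and none of the 12 regulators, 18 chain genes or 20 glycerolipid genes, beside 1.60% of all genes called, so the lists together were near the background. Slc25a1, the mitochondrial citrate carrier that delivers the substrate of Acly, fell by 1.14 (SE 0.27, adjusted p = 0.0163). Its mean level was 3.46 CPM in vehicle mice, 2.51 CPM with atglistatin, 5.27 CPM with corticosterone and 2.38 CPM with both. Over the 12 regulators the median log2 fold change was -0.04. With insulin in the corticosterone group, Tkt of the pentose phosphate pathway (0.70 per doubling, SE 0.17, adjusted p = 0.0335) and Tecr (0.55, SE 0.09) rose, while Acsl1 (-0.38, SE 0.07), Dgat2 (-0.44, SE 0.09) and Lpin1 (-0.39, SE 0.09) fell. Pnpla2, whose product atglistatin inhibits, had a mean of 321.3 ± 132.6 CPM with corticosterone and 329.4 ± 103.2 CPM with both (SD, n = 14 each), a difference of 0.04 (SE 0.14). Its level does not measure the inhibition.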

How the data were processed

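The authors deposited raw counts, whole numbers of reads per Ensembl gene for all 48 libraries, and a table of normalized counts, read as a signal, which was not used in any test. Per the submitters' processing notes, the authors worked with GRCm38, R 3.6.1 and DESeq2 1.24.0. No source used here gives the aligner, the counting program or its strand setting. The deposited counts were all even in 47 libraries, whereas 49.6% of counts were odd in EtOH_ATGLi p13, so halved counts were tried as an alternative.

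Symbols were matched for 14094 of 14125 genes. Genes were filtered with filterByExpr over the 4 groups, normalized by the trimmed mean of M-values and tested with edgeR 4.0.16 (quasi-likelihood, robust) in R 4.3.3, all 48 libraries in 1 fit, with Benjamini-Hochberg adjustment over 12592 genes. Slopes on log2 insulin or log2 fed glucose were fitted within the 14 libraries of a group on the same genes. The log2 CPM used a prior count of 2, and permutation tests were two-sided with 100000 resamples. Standard errors were derived from the quasi-likelihood F statistic, and 95% intervals from those errors by the normal distribution. Named pathway genes were those called, at most the 4 with the smallest p per list and comparison, together with the 10 members and the 6 genes with the highest r with Scd1, of which 1 is not reported here.

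The members, gene lists, markers and tests were chosen with earlier results of these data known. The scripts were tested on simulated data. Libraries were compared within groups before use, and chi-square per degree of freedom was at least 3.51 in each of 272 pairs, so none was taken as a duplicate. Samples were grouped by the labels, which name no batch. Alternatives were DESeq2 1.42.0, limma 3.58.1 (voom), DESeq2 size factors, no low-count filter, halved counts, only the groups compared, only nondiabetic corticosterone mice, the label on a linear scale, both labels together, each library left out in turn, shared title numbers as a block, and 2 sets of libraries left out. The fits without Cort_CON p32, p33 and p34 and those with insulin or fed glucose as covariates were chosen after seeing the data. Whether libraries came from separate mice is not stated, so p-values measure the spread between these libraries. Counting intervals cover counting error only.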

Additional observations from a re-analysis of the deposited data

Results flagged for a closer look

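The rule took sets of 4 to 10 libraries, 40 in all (10 members, with the corticosterone group split by the diabetic label). Cort_ATGLi, with 14 libraries, was too large for it and was not examined. Over the 40 sets 1 library stood far from the others of its set. That is no more than chance gives, since chance marks about 1 set in 20. Scd1 in the diabetic corticosterone mouse p45 had a log2 CPM of 2.84 (7.04 CPM), and the next lowest of the 9 diabetic mice had 5.49, a gap of 0.508 of the whole range. In the same library Elovl6 was at 0.252 CPM, the lowest of the corticosterone group, and Thrsp at 15.8 CPM. Its insulin label was 29.3 and its fed glucose label 315.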

How the results depend on the processing

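Of the values of single members computed under alternative settings, 2902 kept their side of the threshold, 59 lost a call and 17 gained one. Another 2 changed sign where the main or the alternative value was called. The 2902 include values that changed sign without a call. Fasn in Cort_ATGLi against EtOH_ATGLi, for example, went from 0.09 to as low as -0.03 when 1 library was left out. With DESeq2, DESeq2 size factors, no low-count filter or halved counts the calls of Cort_ATGLi against Cort_CON were the same 6 members. They numbered 3 with limma voom, 2 with only the groups compared, 0 with log2 insulin and 0 with log2 fed glucose as a covariate. The fit of the 2 groups alone and both covariate fits hold only the libraries of those groups, fewer than the main fit. The 0 calls with a covariate therefore stand beside the 2 calls of the same libraries without one. What lowered the counts with limma voom or a covariate was not tested, and the share of all genes called with limma voom is not reported here. Leaving out 1 library at a time left 5 to 6 members in Cort_ATGLi against Cort_CON, 5 to 7 in Cort_CON against EtOH_CON and 0 to 3 for the insulin slope in the corticosterone group. That slope called 5 members with insulin and fed glucose together, where the share of all genes is not reported here, and 0 without p32, p33 and p34. Some title numbers recur between groups: p09 to p12 in the groups on vehicle water and p13 and p14 in the groups on atglistatin. Same-numbered libraries correlated from -0.06 to 0.15 in their deviations, so the numbers were not taken as pairs. With these numbers as a replicate block, 2 members were called in Cort_ATGLi against EtOH_ATGLi (Fasn, Scd1) and 2 in EtOH_ATGLi against EtOH_CON (Fasn, Thrsp). Fasn, at 0.09 in Cort_ATGLi against EtOH_ATGLi, then reversed to -0.52, and in the same 4 libraries without the block it was -0.53 with 2 members called. In EtOH_ATGLi against EtOH_CON the 8 numbered libraries without the block called none. The shares of all genes called in the fits of numbered libraries are not reported here, so these member counts have no background to stand beside. Over all genes, Cort_ATGLi against Cort_CON gave 201 calls, and 78 with only the groups compared, 98 without p32, p33 and p34 of Cort_CON, 105 and 40 with the insulin and glucose covariates, and 125 to 354 leaving out 1 library. EtOH_ATGLi against EtOH_CON gave 3, and 20 with halved counts, 28 with limma voom, 38 with DESeq2 or only the groups compared and 1 to 21 leaving out 1 library. The interaction gave 5, 18 with DESeq2, 0 without p32, p33 and p34, and 2 to 7 leaving out 1 library. Cort_CON against EtOH_CON gave 4838, and 2952 with only nondiabetic mice. The insulin slope gave 193 in the corticosterone group, 367 with DESeq2 and 38 to 336 leaving out 1 library, and with atglistatin 13, 22 with no low-count filter, 27 with both labels, 29 with DESeq2, 32 with limma voom, 59 with halved counts and 1 without p41. Depth limits Elovl6 most.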
